A study of Mus musculus with 12 samples.

Results

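Most carriers of the Slc25 family move metabolites across the inner mitochondrial membrane, while Slc25a17 serves the peroxisome and Slc25a46 lies in the outer mitochondrial membrane. A typical member is a small membrane protein that binds its substrate on one side of the membrane and releases it on the other, so that the family joins the metabolism of the matrix to that of the cytosol. Its members carry nucleotides, phosphate, carboxylic acids, amino acids, carnitine esters, cofactors and iron, and a few have no settled substrate. The genes described here were the protein-coding genes whose mouse symbol begins with Slc25a, and 41 of the 18278 genes in the count files met that rule. GENCODE M21 lists 47 such genes. The other 6 (Slc25a18, Slc25a21, Slc25a31, Slc25a41, Slc25a43 and Slc25a54) were not analysed here. All 41 passed the filter on low counts, and 39 of them had a mean of at least 1 CPM, where CPM is the counts-per-million of a library after TMM scaling.

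The 12 RNA libraries came from tumourspheres of mouse mammary cancer lines, with 3 libraries in each of 4 groups. The parental groups are labelled LM1 and LM9, and the others carry the same names followed by Nfib KO. The latter are called LM1-KO and LM9-KO below, or KO-labelled together. Tumour cells isolated from the lungs of NOD/SCID mice and sorted for GFP gave the lines LM1 and LM9. Both descend from HR1 after doxycycline-induced piggyBac transposon mutagenesis. HR1 is a line from a mammary tumour of a mouse carrying an activated PIK3CA transgene under the CAG promoter. By their labels, all 4 groups share that transgene and the mutagenesis. In the KO groups Nfib, which codes for a nuclear factor I transcription factor, was edited with CRISPR-Cas9 to shift the reading frame, and each KO line is a pool of single-cell clones. All cultures were seeded at 10000 cells per mL in ultra-low attachment plates and kept for 6 days with B27, EGF and basic FGF, both growth factors at 20 ng per mL. The labels do not say whether the 3 samples of a group were separate cultures, so the p-values measure only the spread between these samples. By their labels the comparisons address what differs in tumourspheres when Nfib is edited, and whether both lines show it. The counts go against those labels in places, as described next, so each difference below is one between libraries so labelled.

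Some facts of the whole series touch every result below. Library totals ran from 29249075 to 37162594 counts, and 3 counts corresponded to 0.0807 to 0.103 CPM before TMM scaling. Nfib was not lower in the KO-labelled libraries: it stood at 196 to 241 CPM in LM1 and 228 to 239 CPM in the LM1-KO libraries, and at 120 to 210 CPM in LM9 and 227 to 247 CPM in the LM9-KO libraries. A frameshift need not lower the read count of a gene, so this value does not test the edit, and the groups are called by their labels. Libraries were also compared in pairs by the chi-square per degree of freedom of their counts over genes, where 1 is counting error alone. The lowest of the 66 pairs gave 1.49, so none was merged. The library labelled LM9 replicate 1 gave 2.35 to 5.73 against the LM1 libraries, which gave 5.78 to 8.43 among themselves, but 161 to 181 against the other two LM9 libraries. In 39 of the 41 carriers its level was nearer to the LM1 mean than to that of LM9 replicates 2 and 3. The KO-labelled libraries gave 1.68 to 6.18 across the lines and 1.49 to 4.51 within them. Pairs of a parental and a KO-labelled library gave 901 to 1064. The library labelled LM9 replicate 1 thus goes against its label and may be an LM1 library, and the KO-labelled libraries of the 2 lines could not be told apart.

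The cells also differed in the markers of their type. All 5 markers of simple epithelium (Epcam, Cdh1, Krt8, Krt18 and Krt19) were lower in the KO-labelled libraries of both lines, and their summed level was 737 to 1327 CPM in the 6 parental libraries and 0.931 to 1.11 CPM in the 6 KO-labelled ones. Krt18 had at most 4 counts and Cdh1 at most 1 count in any KO-labelled library. The mesenchymal markers measured (Vim, Col1a1, Col1a2, Pdgfra and Pdgfrb) summed to 3155 to 5701 CPM in the parental and 6444 to 6700 CPM in the KO-labelled libraries, and 5 of 5 were higher in LM1 and 4 of 5 in LM9. Col1a2 had no count in any parental library. Of the endothelial markers, Cdh5 was at a mean of 0.0223 CPM in LM1 and 73.3 CPM in the LM1-KO libraries. Pecam1 did not pass the test in LM1 (adjusted p = 0.577 by limma-voom). In LM9 it did not pass either and had the opposite sign to Cdh5 (log2 difference -0.92, adjusted p = 0.205, and -1.89 without LM9 replicate 1). Of the basal markers Krt14 was higher in both lines. Trp63 fell by 5.79 on the log2 scale in LM1 and did not pass in LM9 (log2 difference -1.49, adjusted p = 0.412 by limma-voom). Without LM9 replicate 1 the LM9 value of Trp63 was 1.01, with the sign turned. Of the blood cell markers only Cd68 was analysed, and it fell by 2.19 in LM1. The KO-labelled libraries thus lacked the epithelial markers of the parental ones and held mesenchymal markers and Cdh5, and whether they derive from LM1 and LM9 was not tested. An effect of the Nfib edit and a different origin or type of the cells cannot be told apart here. The epithelial and mesenchymal markers differed between the KO-labelled and parental libraries that are compared below. Their part in the carrier results was not tested. In bulk RNA, fewer cells of a type and less RNA per cell cannot be told apart.

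Most of the carriers differed between the KO-labelled and the parental libraries, and by large amounts. The largest falls were those of Slc25a23, an ATP-magnesium and phosphate exchanger, Slc25a27 and Slc25a30, both akin to the uncoupling proteins, and Slc25a45. The largest rises were those of Slc25a34, which has no settled substrate, Slc25a48, linked to choline, Slc25a5, the second ADP/ATP carrier, and Slc25a40, linked to glutathione. In LM1, 40 of the 41 carriers passed limma-voom at an adjusted p under 0.05 (97.6%), 25 of them higher and 15 lower in the KO-labelled libraries. Most genes in the files did so too: 81.2% of the 18176 genes tested passed in LM1, 43.1% higher and 38.1% lower. In LM9, 38 carriers passed (92.7%), 25 higher and 13 lower, against 82.3% of all genes, 44.3% higher and 38% lower. With an absolute log2 fold change above 1 as a further condition, 29 carriers (70.7%) passed in LM1 and 27 (65.9%) in LM9, against 55% and 57.5% of all genes. The median absolute log2 fold change of the carriers was 1.73 in LM1 and 1.76 in LM9, and that of all genes tested was 1.16 and 1.24. The signed medians were 0.59 and 0.60 for the carriers and 0.08 and 0.13 for all genes. Most carriers were thus called, from a background in which most genes were called, and the counts within each substrate group below have the same background.

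The 25 carriers higher in LM1 were also higher in LM9, and the 13 lower in LM9 were also lower in LM1. These were 61% and 31.7% of the carriers, and of all genes tested 39.6% were higher and 33.5% lower in both lines, with 7 genes in opposite directions. Slc25a12 and Slc25a51 passed in LM1 alone and Slc25a35 in neither line. The 3 KO-labelled and the 3 parental libraries did not overlap in 40 carriers in LM1 and in 37 carriers in LM9 (97.6% and 90.2%), against 89.1% and 80.5% of all genes tested. Since the KO-labelled libraries of the lines were as near to each other across the lines as within them, and LM9 replicate 1 lay with LM1, the results of the 2 lines are not separate evidence. Without LM9 replicate 1, 38 carriers passed in LM9, 26 of them higher and 12 lower, with Slc25a12 among them and Slc25a2 no longer so. That was 92.7% of the carriers (63.4% higher and 29.3% lower), against 88.9% of the 18246 genes then tested (47.7% higher and 41.2% lower).

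**Figure D1:**
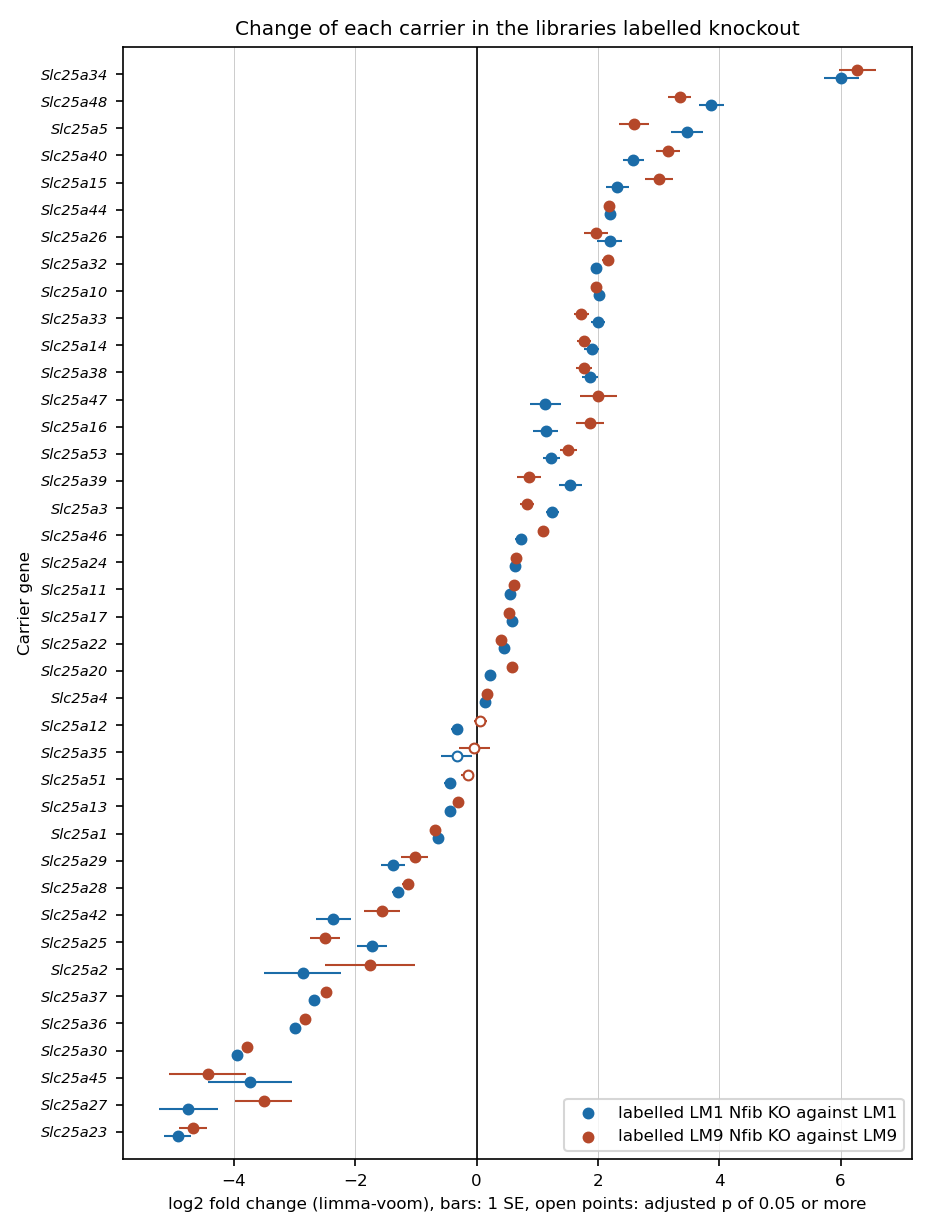
Log2 fold change of 40 carriers in the KO-labelled against the parental libraries (horizontal axis, limma-voom), ordered by the mean of both lines, with bars of 1 SE. Blue points are LM1, red points are LM9, and open points have an adjusted p of 0.05 or more. Slc25a34 lies farthest right and Slc25a23 farthest left, and the 3 open points in LM9 and 1 in LM1 lie near 0.

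The uncoupling protein-like carriers, Slc25a14, Slc25a27 and Slc25a30, are placed near the uncoupling proteins by sequence, and their substrates are not settled. Slc25a30 (ENSMUSG00000022003, chr14:75760117-75787037, minus strand, GRCm38) had the highest level per kb of exon of all carriers in LM1. The LM1 libraries held 474, 504 and 487 CPM and the LM9 libraries 474, 418 and 434 CPM. The levels were 32, 31.4 and 30.9 CPM in the LM1-KO libraries and 31.7, 32.3 and 31.9 CPM in the LM9-KO libraries. Every KO-labelled library was far below every parental one, and the KO-labelled libraries lay within a narrow band. Slc25a30 fell by 3.96 on the log2 scale in LM1 (SE 0.061, adjusted p = 2.2e-12, limma-voom), which is 15.5-fold, and by 3.79 in LM9 (SE 0.061, adjusted p = 2.9e-12), which is 13.8-fold. Leaving out LM9 replicate 1 gave a fall of 3.73 in LM9. Its group means were 488 ± 15.4 CPM (SD, n = 3) in LM1 and 31.5 ± 0.555 CPM in the LM1-KO libraries.

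Slc25a27, which codes for a protein also called UCP4, fell from a low level. It was at 3.51, 3.56 and 4.52 CPM in LM1 and at 0.252, 0.0784 and 0.106 CPM in the LM1-KO libraries. In LM9 it was at 3.95, 1.53 and 1.93 CPM, against 0.233, 0.195 and 0.156 CPM in the KO-labelled libraries. LM9 replicate 1 was again at the LM1 level, and no KO-labelled library reached a parental one. The fall was 4.75 on the log2 scale in LM1 (SE 0.49) and 3.51 in LM9 (SE 0.47). Slc25a14, also called BMCP1, moved the other way: it was 3.11 ± 0.352 CPM in LM1 and 11.6 ± 0.935 CPM in the LM1-KO libraries, a log2 difference of 1.90 (adjusted p = 3.1e-08, limma-voom), and it rose by 1.77 in LM9. Summed over these 3 genes, the level per kb of exon was 109 CPM per kb in LM1 and 11.8 CPM per kb in the LM1-KO libraries, and 98.7 and 12 CPM per kb in LM9. Slc25a30 made up 97.9% ± 0.201 of that sum in LM1 and 58.3% ± 2.29 in the KO-labelled libraries, where Slc25a14 made up 41.4% ± 2.47.

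**Figure D2:**
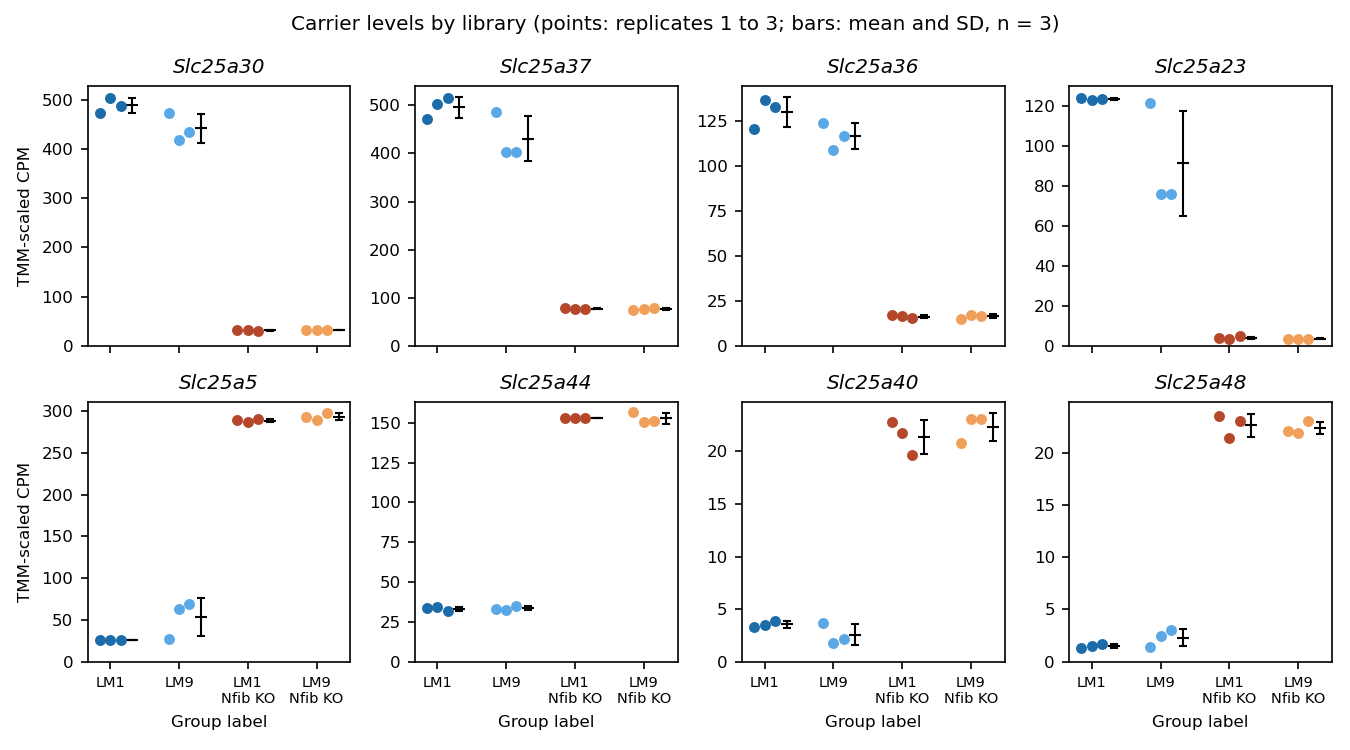
TMM-scaled CPM of 8 carriers in each library (points, replicates 1 to 3 from left to right), with the mean and SD of each group (n = 3). The upper row holds 4 carriers that fell, with Slc25a30 at 418 to 504 CPM in the parental and 30.9 to 32.3 CPM in the KO-labelled libraries. The lower row holds 4 that rose, and in Slc25a23 and Slc25a5 the leftmost LM9 point stands at the LM1 level.

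The 8 carriers of nucleotides and phosphate include the main exporters of ATP from the matrix. In both lines 5 rose and 3 fell. Slc25a5 (ENSMUSG00000016319, chrX:36795651-36798807, plus strand), the ADP/ATP carrier also called ANT2, stood at 26.3, 25.9 and 26.1 CPM in LM1 and at 289, 287 and 290.0 CPM in the LM1-KO libraries. In LM9 it stood at 27.1, 62.9 and 69.4 CPM, against 293, 290 and 298 CPM in the KO-labelled libraries. The KO-labelled libraries were alike in both lines, and in LM9 the low value of replicate 1 set it apart from the other two. The log2 difference was 3.47 in LM1 (SE 0.26, adjusted p = 1.9e-07, limma-voom) and 2.59 in LM9 (SE 0.25, adjusted p = 1.5e-06), or 2.15 in LM9 without replicate 1. Reads of Slc25a5 can also match near-identical copies, and how such reads were counted was not given in the sources used here. The pseudogene Slc25a5-ps, listed separately in the files, showed a log2 difference of 3.46 in LM1 from a mean of 0.966 CPM to 10.8 CPM, so the values of both are uncertain to that extent.

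Slc25a4, the ADP/ATP carrier also called ANT1 and the main form in heart and muscle, hardly moved. It was 240 ± 5.68 CPM in LM1 and 265 ± 1.84 CPM in the LM1-KO libraries, and 234 ± 3.86 and 263 ± 2.90 CPM in LM9. The libraries did not overlap, and the log2 differences of 0.14 (adjusted p = 0.011, limma-voom) and 0.16 (adjusted p = 0.0051) passed the test, but the median of all genes stood at 0.08 and 0.13 under the same scaling. Scaled by total counts that median moved to 0.31 in LM1 and 0.49 in LM9, so differences of this size depend on the scaling. In a fit of the LM9 and LM9-KO libraries alone Slc25a4 did not pass (adjusted p = 0.065, limma-voom). The share of Slc25a5 in the summed level per kb of the pair was 13.3% to 13.7% in LM1, 14% in LM9 replicate 1, 28.1% and 29.8% in the other two LM9 libraries, and 60.7% to 61.7% in the KO-labelled libraries of both lines. These shares do not depend on how libraries are scaled. The pair summed to 118 CPM per kb in LM1 and 288 CPM per kb in the LM1-KO libraries.

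The 3 calcium-dependent ATP-magnesium and phosphate carriers changed their balance. Slc25a23 (ENSMUSG00000046329, chr17:57043711-57059863, minus strand) was at 124, 123 and 123 CPM in LM1 and at 3.90, 3.66 and 4.68 CPM in the LM1-KO libraries. In LM9 it was at 122, 76.0 and 76.1 CPM, against 3.27, 3.67 and 3.51 CPM. All parental libraries were above all KO-labelled ones, with LM9 replicate 1 beside LM1. It fell by 4.92 in LM1 (SE 0.22, adjusted p = 2.0e-09, limma-voom) and by 4.68 in LM9 (SE 0.23, adjusted p = 4.6e-09), the largest fall by the mean of both lines. Slc25a25 fell by 1.73 in LM1, from 99.6 to 30.1 CPM, and by 2.5 in LM9. Slc25a24 rose by 0.63 in LM1 and 0.65 in LM9. Of the summed level per kb of the 3, Slc25a23 took 40.3% ± 0.540 in LM1 and 2.01% ± 0.353 in the LM1-KO libraries, and Slc25a24 took 37.8% ± 1.33 and 88.1% ± 0.831.

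The pyrimidine nucleotide carriers Slc25a33 and Slc25a36 exchanged places in the same way. Slc25a36 (chr9:97074961-97111157, minus strand) was at 121, 137 and 133 CPM in LM1 and at 16.9, 16.8 and 15.2 CPM in the LM1-KO libraries. It fell by 3.0 in LM1 (SE 0.083) and by 2.83 in LM9, and no KO-labelled library came near a parental one. Slc25a33 rose by 2.00 in LM1, from 10.2 to 40.8 CPM, and by 1.73 in LM9. Its share of the level per kb of the pair was 28.4% ± 0.146 in LM1 and 92.7% ± 0.647 in the KO-labelled libraries, and 36.3% ± 6.28 and 93.0% ± 0.518 in LM9. The sum of the pair was 19 CPM per kb in LM1 and 23.3 CPM per kb in the LM1-KO libraries, a far smaller difference than that of either gene. An antisense gene, Gm13068, covers 14.9% of the exon bases of Slc25a33, and whether counting used strand was not given. Slc25a3, the phosphate carrier that feeds ATP synthase, was at 223, 228 and 218 CPM in LM1 and 532, 524 and 535 CPM in the LM1-KO libraries. It rose by 1.25 in LM1 (SE 0.11) and by 0.83 in LM9 (SE 0.11).

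**Figure D3:**
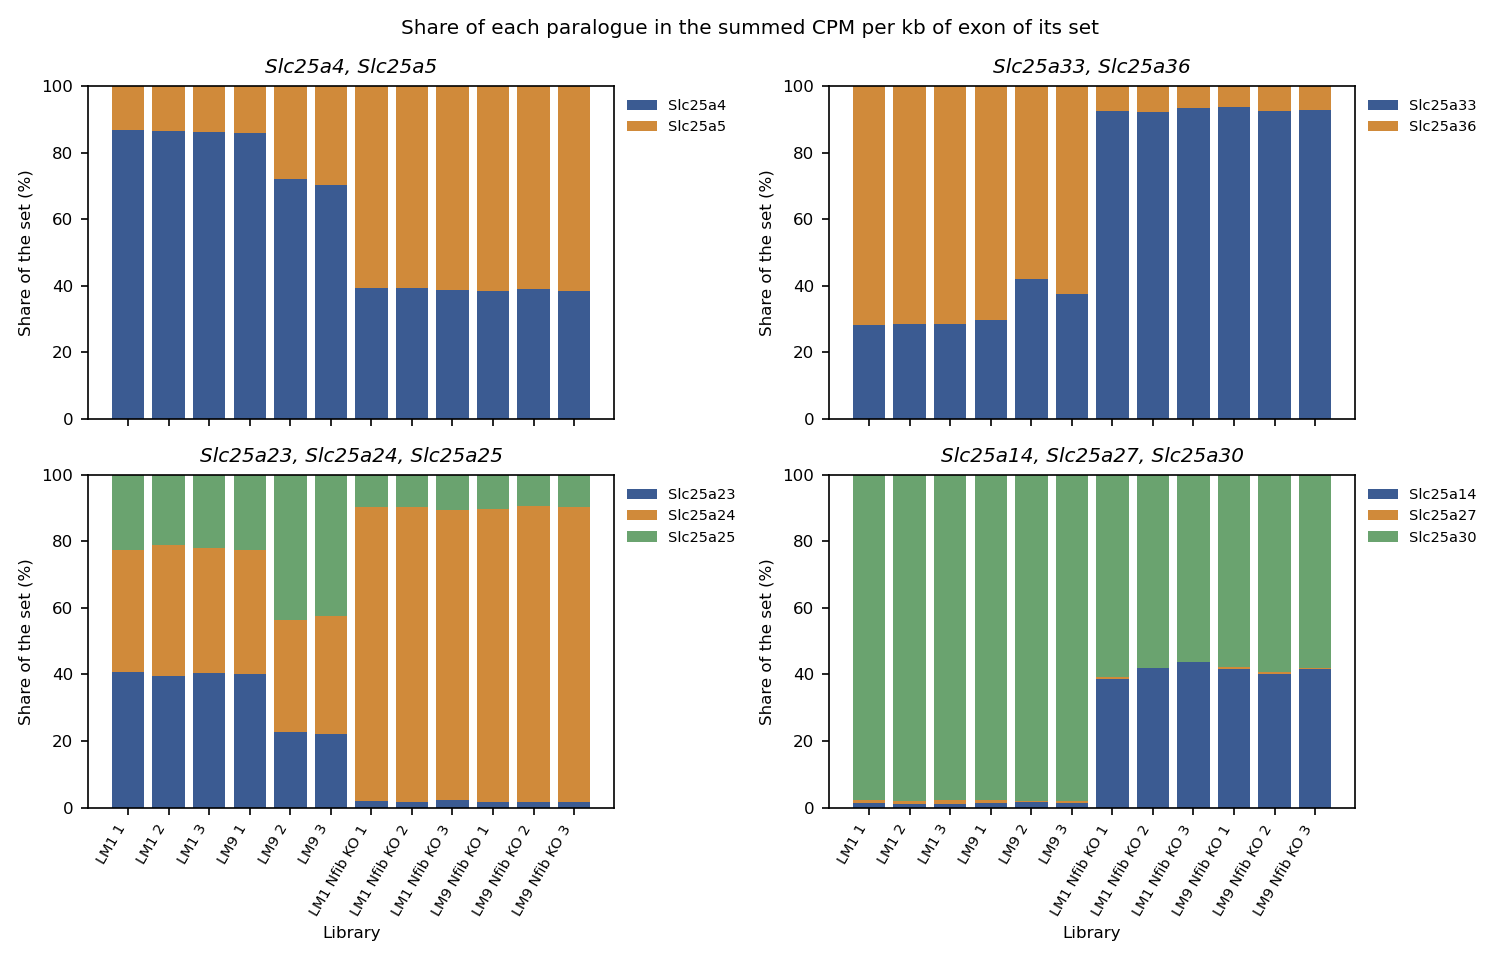
Share of each paralogue (%) in the summed CPM per kb of exon of its set, in each of the 12 libraries. Slc25a5, Slc25a33 and Slc25a24 took 60.9%, 92.7% and 88.1% of their sets in the LM1-KO libraries, and in the first 3 sets LM9 replicate 1 looks like the LM1 libraries.

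Both iron carriers fell in both lines, as did 33.5% of all genes tested. Slc25a37 (mitoferrin 1, ENSMUSG00000034248, chr14:69241848-69285112, minus strand) and Slc25a28 (mitoferrin 2) bring iron into the matrix for haem and iron-sulphur clusters. The LM1 libraries held 471, 502 and 514 CPM of Slc25a37 and the LM1-KO libraries 77.7, 76.9 and 76.5 CPM. The LM9 libraries held 485, 403 and 404 CPM and the LM9-KO libraries 74.7, 77.3 and 79.0 CPM. The parental libraries were all several times above the KO-labelled ones. Slc25a37 fell by 2.69 in LM1 (SE 0.075, adjusted p = 5.3e-11, limma-voom) and by 2.48 in LM9 (SE 0.075, adjusted p = 1.0e-10). Slc25a28 fell by 1.30 and 1.13, from 45.2 to 18.3 CPM in LM1. Together they summed to 94.4 CPM per kb in LM1 and 17.7 CPM per kb in the LM1-KO libraries. Of 8 listed genes for iron-sulphur clusters and haem synthesis, 4 rose and 4 fell in LM1, and 4 rose and 3 fell in LM9, against 43.1% and 38.1% of all genes in LM1 and 44.3% and 38% in LM9. Iscu, the scaffold on which iron-sulphur clusters are built, was higher by 1.79 in LM1 and by 1.70 in LM9. Ppox, an enzyme of haem synthesis that does not itself use iron, fell by 3.53 in LM1 and by 3.41 in LM9. Nfs1, the cysteine desulphurase of cluster assembly, did not pass in LM9 (log2 difference -0.073, adjusted p = 0.46, limma-voom).

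Of the 9 cofactor carriers, 7 rose and 2 fell in LM1, and 7 rose and 1 fell in LM9. Slc25a39 and Slc25a40, linked to the import of glutathione, both rose. Slc25a39 was at 166, 145 and 158 CPM in LM1 and 467, 440.2 and 462 CPM in the LM1-KO libraries. In LM9 it was at 160, 308 and 302 CPM, against 448, 435 and 455 CPM. LM9 replicates 2 and 3 lay between LM1 and the KO-labelled libraries, and the log2 difference was 1.55 in LM1 (SE 0.20) and 0.86 in LM9 (SE 0.20), or 0.55 in LM9 without replicate 1. Slc25a40 rose from far lower, from 3.55 to 21.4 CPM in LM1 (log2 difference 2.59, SE 0.17) and from 2.56 to 22.3 CPM in LM9 (3.16, SE 0.19). Slc25a39 made up 99.3% of the level per kb of that pair in LM1 and 98.5% in the LM1-KO libraries, so the balance of this pair moved little.

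Among the other cofactor carriers that rose were Slc25a32 (folate or FAD, by 1.97 in LM1), Slc25a26 (S-adenosylmethionine, by 2.20), Slc25a16 (by 1.14) and Slc25a17 (by 0.59). Slc25a32 had 16 ± 1.37 CPM in LM1 and 62.6 ± 3.10 CPM in the LM1-KO libraries. Slc25a42, a coenzyme A carrier, fell by 2.36 in LM1, from 20.1 to 3.92 CPM, and by 1.55 in LM9. Slc25a51, the NAD carrier, stood at 102 to 110 CPM in LM1 and 77.7 to 79.1 CPM in the LM1-KO libraries (log2 difference -0.44, adjusted p = 0.0024, limma-voom). In LM9 it was at 105, 72.9 and 79.1 CPM, against 77.1, 74.5 and 79.2 CPM, where only replicate 1 stood apart and the test was not passed (log2 difference -0.14, adjusted p = 0.239). The mitochondrial folate enzymes, which draw on the folate that Slc25a32 is thought to bring in, rose in 4 of 5 cases in both lines, with a median log2 difference of 4.04 in LM1 and 3.87 in LM9. Of all genes tested 39.6% rose in both lines, and the medians were 0.08 and 0.13. Aldh1l2 rose by 4.92 in LM1 and Shmt2 by 4.04, while Mthfd2l fell by 0.89.

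Of the 8 amino acid carriers, 4 rose and 4 fell in LM1, and 4 rose and 3 fell in LM9. Slc25a44 (chr3:88410498-88425139, minus strand), a carrier of branched-chain amino acids, was at 33.8, 34.1 and 31.6 CPM in LM1 and at 153 CPM in each of the LM1-KO libraries. In LM9 it was at 33.3, 32.7 and 35.3 CPM, against 157, 150.4 and 151 CPM. Unlike most of the carriers above, its LM9 libraries stood together. It rose by 2.21 in LM1 (SE 0.055, adjusted p = 2.7e-11, limma-voom) and by 2.18 in LM9 (SE 0.056, adjusted p = 3.2e-11). Slc25a38, a glycine carrier needed for haem synthesis, rose by 1.87 and 1.77, from 4.98 to 18.1 CPM in LM1. Slc25a22, a glutamate carrier, rose by 0.46 and 0.40.

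The ornithine and basic amino acid carriers did not move together. Slc25a15 (ORNT1, which serves the urea cycle) rose from 2.58 to 12.8 CPM in LM1, by 2.32 (SE 0.19), and by 3.01 in LM9. Slc25a29 fell by 1.38 in LM1, from 8.06 to 3.07 CPM, and by 1.02 in LM9. Slc25a2 lay near the floor: it had 2 to 3 counts in each of the LM1-KO libraries, and the pooled counts gave a ratio of 8.34 for LM1 over these libraries, with an exact 95% counting interval of 3.93 to 20.4. In LM9 its levels were 0.540, 0.0403 and 0.157 CPM, so that replicate 1 set the fall of 1.76 there (adjusted p = 0.045, limma-voom). Without that replicate the fall was 0.90 and did not pass (adjusted p = 0.197). Slc25a15 took 11.7% ± 4.03 of the summed level per kb of these 3 in LM1 and 65.0% ± 1.74 in the KO-labelled libraries.

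The aspartate-glutamate carriers of the malate-aspartate shuttle, Slc25a12 and Slc25a13, moved little. Slc25a13 fell by 0.43 in LM1 and fell by 0.31 in LM9, and scaled by total counts its LM9 value was 0.04 with the opposite sign. Slc25a12 was at 62.1, 63.7 and 62.8 CPM in LM1 and 50.1, 50.1 and 51.1 CPM in the LM1-KO libraries (log2 difference -0.32, adjusted p = 0.014, limma-voom). In LM9 it was at 60.7, 42.9 and 44.4 CPM, against 50.7, 51.6 and 50.9 CPM, so that the KO-labelled libraries lay between replicate 1 and the other two (log2 difference 0.06, adjusted p = 0.587). Scaled by total counts the LM1 calls of Slc25a12 and Slc25a51 were lost (adjusted p = 0.525 and 0.168, limma-voom), and Slc25a12 passed in LM9 (log2 difference 0.42, adjusted p = 0.016). Without replicate 1 the log2 difference of Slc25a12 in LM9 was 0.23 (adjusted p = 7.1e-05), the direction opposite to LM1. Of the shuttle's 4 enzymes, Mdh2 rose by 1.52 in LM1 and 1.29 in LM9 and Got2 by 0.86 and 0.60, whereas Mdh1 fell by 0.89 and 0.87. Got1 rose by 0.47 in LM1 (adjusted p = 0.030, limma-voom) and did not pass in LM9 (log2 difference -0.096, adjusted p = 0.62), where it was -0.38 without replicate 1.

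Of the 3 carboxylate carriers, Slc25a10, the dicarboxylate carrier, rose most. It went from 19.8 ± 1.94 to 79.6 ± 1.10 CPM in LM1 (log2 difference 2.01, SE 0.079) and by 1.97 in LM9. Slc25a11, the oxoglutarate-malate carrier of the malate-aspartate shuttle, rose by 0.55 and 0.62, and 8.92% of its exon bases lie under Rnf167 on the opposite strand. Slc25a1, the citrate carrier that supplies cytosolic acetyl-CoA, fell by 0.63 in LM1 and 0.69 in LM9, from 67.6 to 43.6 CPM in LM1. Among the genes that use cytosolic citrate or acetate, Acly rose by 1.34 and Fasn by 0.49 in LM1, while Acss2 fell by 2.64 and Acaca by 0.74. In LM9 Acly rose by 1.37 and Acss2 fell by 2.34, whereas Fasn (log2 difference 0.14, adjusted p = 0.291 by limma-voom) and Acaca (-0.21, adjusted p = 0.232) did not pass. Without LM9 replicate 1 these 2 values were -0.013 and 0.041, with the sign turned. Slc25a20, the carnitine-acylcarnitine carrier, differed by 0.23 in LM1 (15.1 against 17.6 CPM, adjusted p = 0.029, limma-voom, and up to 0.079 with a library left out) and rose by 0.59 in LM9. Of the 5 carnitine shuttle enzymes, 4 rose in LM1 and 5 in LM9, against 43.1% and 44.3% of all genes, and Cpt1a rose by 2.30 and 2.58.

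The remaining 7 carriers have a choline-linked or uncertain substrate, and 5 rose and 1 fell in both lines. Slc25a34 (chr4:141618824-141623821, minus strand) had 1 to 3 counts in each LM1 library and 1 to 2 counts in each LM9 library. Its levels were 5.61, 5.78 and 6.02 CPM in the LM1-KO libraries and 5.0, 5.33 and 5.12 CPM in the LM9-KO libraries. The pooled counts gave a ratio of 73.4 in LM1 (exact 95% counting interval 35.4 to 183) and of 103 in LM9 (39.99 to 379), and these intervals cover counting error only. Slc25a48 was at 1.35, 1.53 and 1.74 CPM in LM1 and 23.5, 21.4 and 23.1 CPM in the LM1-KO libraries. It rose by 3.87 in LM1 (SE 0.20, adjusted p = 6.6e-09, limma-voom) and by 3.35 in LM9 (SE 0.19), and no KO-labelled library overlapped a parental one.

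Slc25a45 fell by 3.74 in LM1 and fell by 4.43 in LM9. Its parental levels were 1.84, 1.26 and 1.37 CPM in LM1 and 1.52, 4.51 and 4.68 CPM in LM9, with at most 0.233 CPM in a KO-labelled library. Slc25a46, a protein of the outer membrane that takes part in mitochondrial shape, rose by 0.73 and 1.10. Slc25a47 and Slc25a53 rose by 1.14 and 1.23 in LM1. Slc25a35 stood at 0.398 to 0.644 CPM in LM1 and 0.340 to 0.453 CPM in the LM1-KO libraries, and did not pass in either line (adjusted p = 0.242 and 0.904 by limma-voom). Of its exon bases 31.3% lie under Rangrf on the opposite strand, so its low counts are uncertain.

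**Figure D4:**
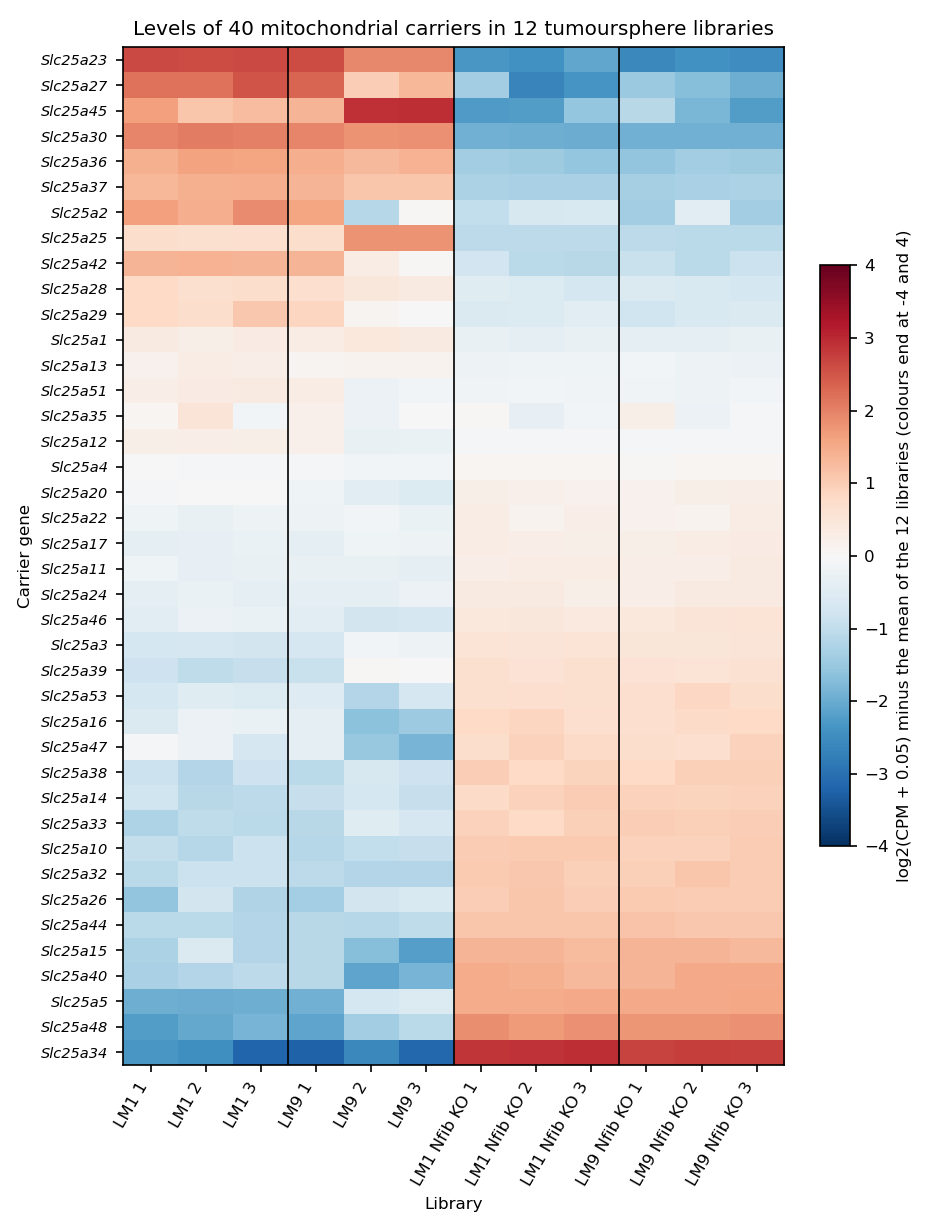
Level of 40 carriers (rows, ordered by the mean change of both lines) in the 12 libraries (columns), as log2(CPM + 0.05) minus the mean of the 12 libraries, with colours ending at -4 and 4. The 6 KO-labelled columns look alike, and the column of LM9 replicate 1 looks like the 3 LM1 columns rather than the other two LM9 columns.

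The makeup of the family differed between the groups more than its sum. Summed over the 41 carriers the level was 640.0 ± 2.57 CPM per kb in LM1 and 867 ± 8.37 in the LM1-KO libraries, and 677 ± 38.7 and 863 ± 12.5 CPM per kb in LM9. Without division by length the sums were 2672 ± 33.2 and 2752 ± 24.7 CPM in LM1 and the LM1-KO libraries, and 2734 ± 86.5 and 2731 ± 40.3 CPM in LM9 and the LM9-KO libraries, where the gap was smaller than the spread between libraries. In LM1 the leading carriers by share of the summed level per kb were Slc25a30 with 16.7%, Slc25a4 with 15.9%, Slc25a37 with 12.9% and Slc25a39 with 8.86%. In the libraries labelled LM1 Nfib KO they were Slc25a5 with 20.2%, Slc25a39 with 19.1%, Slc25a4 with 13% and Slc25a3 with 11%. Slc25a30 went from rank 1 in LM1 and rank 2 in LM9 to rank 17 in both KO-labelled groups, where it held 0.794% and 0.811%. Slc25a37 went from rank 3 to rank 13 in LM1, and Slc25a5 from rank 11 to rank 1.

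Promoters were read for short motifs, since carriers moved together in both directions. RefSeq promoter windows on GRCm38.p6, running from 250 bases before to 50 bases after a start, were found for 31 of the 41 carriers, 20 of them higher and 10 lower in both lines. The motif ACGTG, the core bound by hypoxia-inducible factors and by other factors too, was searched on both strands and was present in 9 of 31 carriers (29%), against 21.8% of all genes in the table. It was in 5 of the 10 that fell (Slc25a1, Slc25a13, Slc25a28, Slc25a30 and Slc25a36) and in 4 of the 20 that rose (Slc25a3, Slc25a14, Slc25a15 and Slc25a33). The motif TTGGCA, part of the site that nuclear factor I proteins bind, was in 2 carriers, Slc25a5 and Slc25a47 (6.45%), against 16.1% of all genes, and both were higher. AAGGTCA, bound by oestrogen-related receptors, was in Slc25a34 alone (3.23% against 5.38%), and GCGCATGCG, bound by NRF1, was in none (1.95% of all genes). The 250 bases before the start are shown for 3 carriers that fell and hold ACGTG, and for Slc25a5, the most abundant carrier per kb of the KO-labelled libraries, which holds TTGGCA. They were picked for holding a motif. Each runs 5′ to 3′ on the strand of the gene, with matches on either strand in capitals, so that CACGT and TGCCAA are ACGTG and TTGGCA on the other strand and CACGTG is a match on both. The regions are chr14:75787038-75787287 (minus strand) for Slc25a30, chr9:97111042-97111291 (minus) for Slc25a36, chr19:43674882-43675131 (minus) for Slc25a28 and chrX:36795347-36795596 (plus) for Slc25a5.
Slc25a30: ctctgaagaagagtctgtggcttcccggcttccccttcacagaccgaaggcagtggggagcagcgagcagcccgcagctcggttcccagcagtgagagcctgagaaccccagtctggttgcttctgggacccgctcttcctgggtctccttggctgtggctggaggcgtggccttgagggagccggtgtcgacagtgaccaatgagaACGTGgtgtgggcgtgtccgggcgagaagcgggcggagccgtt
Slc25a36: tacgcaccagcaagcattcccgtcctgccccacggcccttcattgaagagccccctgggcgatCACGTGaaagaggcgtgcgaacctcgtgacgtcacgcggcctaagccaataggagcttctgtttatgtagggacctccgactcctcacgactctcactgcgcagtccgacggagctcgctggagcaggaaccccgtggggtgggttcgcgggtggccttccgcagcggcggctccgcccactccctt
Slc25a28: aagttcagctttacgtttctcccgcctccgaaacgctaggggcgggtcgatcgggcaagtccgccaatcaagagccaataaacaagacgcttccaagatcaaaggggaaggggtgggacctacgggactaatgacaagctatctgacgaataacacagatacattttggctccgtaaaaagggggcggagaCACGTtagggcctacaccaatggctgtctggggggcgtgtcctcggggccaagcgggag
Slc25a5: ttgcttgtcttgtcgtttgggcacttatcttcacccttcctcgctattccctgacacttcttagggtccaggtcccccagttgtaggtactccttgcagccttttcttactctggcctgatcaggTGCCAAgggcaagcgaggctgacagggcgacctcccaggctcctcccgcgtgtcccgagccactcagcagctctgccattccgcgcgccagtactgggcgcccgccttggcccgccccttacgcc
The match in Slc25a30 is a lone ACGTG on the strand of the gene, that in Slc25a36 a palindrome, and that in Slc25a28 lies on the other strand. A match describes letters and not binding.

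Between the parental lines the carriers were compared directly. With all libraries, none of the 41 passed in LM1 against LM9, where 0.0055% of all genes (1 gene) did, although 23 carriers (56.1%) had an unadjusted p under 0.05, as did 47.7% of all genes. The smallest adjusted p of a carrier was 0.054 (limma-voom), and 13 carriers had an adjusted p between 0.05 and 0.06, so the count rests on a narrow margin. The edgeR quasi-likelihood test also called 0 carriers, and 1 of the 18176 genes tested. DESeq2 called 15 carriers (36.6%, against 31.8% of all genes). The count thus turned on the test used. It also turned on LM9 replicate 1: without that library 26 carriers passed (63.4%), 17 higher and 9 lower in LM1, against 65.7% of all 18246 genes then tested. The cell type markers also differed between these libraries. The simple epithelial markers summed to 737 to 787 CPM in LM1 and to 1327 and 1284 CPM in LM9 replicates 2 and 3. For the basal markers the sums were 15.8 to 19.1 against 0.363 and 0.354 CPM. For the mesenchymal markers they were 3155 to 3430 against 5701 and 5637 CPM. The part of these markers in the carrier differences was not tested. Some of the carrier differences were large. Slc25a5 was 2.53-fold and Slc25a25 2.19-fold lower in LM1 than in LM9 replicates 2 and 3. Slc25a39 was 1.95-fold lower in LM1, and Slc25a42, at 20.1 CPM in LM1 and 9.43 and 7.99 CPM in LM9 replicates 2 and 3, was 2.31-fold higher.

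Slc25a25, a carrier that calcium acts on, had the clearest gap: 103, 97.0 and 99.2 CPM in LM1, 102 CPM in LM9 replicate 1 and 219 and 217 CPM in LM9 replicates 2 and 3. Slc25a3 stood at 231 CPM in LM9 replicate 1 and at 337 and 316 CPM in the other two. Slc25a20 stood at 14.8, 15.1 and 15.3 CPM in LM1, 13.6 CPM in LM9 replicate 1 and 11.4 and 10.4 CPM in LM9 replicates 2 and 3. Both gaps were larger than the spread within LM1. Slc25a30 was 1.15-fold higher in LM1 than in LM9 without replicate 1 (adjusted p = 3.2e-05, limma-voom), small beside its fall in the KO-labelled libraries. Slc25a44 did not pass (adjusted p = 0.624), with a log2 difference of -0.033 (SE 0.055).

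The change in LM9 was tested against the change in LM1. With all libraries no carrier passed, nor did any gene (0% of all genes), and 11 carriers (26.8%) had an unadjusted p under 0.05, as did 24.7% of all genes. The edgeR quasi-likelihood test called 0 carriers and 1 of the 18176 genes tested, and DESeq2 called 0 carriers and 70 genes (0.385%). The smallest adjusted p of a carrier was 0.202 (limma-voom). Without LM9 replicate 1, 24 carriers passed (58.5%), against 57.2% of all genes, so the carriers stood near the background. Of these, 16 had a higher and 8 a lower log2 fold change in LM9 than in LM1. The LM1-KO and LM9-KO libraries were also compared with each other: no carrier passed and 0% of all genes did, no carrier had an unadjusted p under 0.05 and 178 of all genes did. The largest absolute log2 difference among the 39 carriers with a mean of at least 1 CPM was 0.52. Slc25a25, for example, stood at 30.1 ± 0.136 CPM in the LM1-KO and 29.9 ± 0.495 CPM in the LM9-KO libraries.

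Genes that act with the carriers were described from lists. The other carrier family members measured were Ucp2, which fell by 0.88 in LM1, Mtch1, which fell by 0.67, and Mtch2, which rose by 0.39. Of 16 genes for the import and insertion of carriers, 11 rose and 4 fell in LM1, and 10 rose and 4 fell in LM9, with medians of 1.29 and 1.10. Of all genes tested 43.1% rose and 38.1% fell in LM1, and 44.3% and 38% in LM9, with medians of 0.08 and 0.13. Timm22, the channel that inserts carriers into the inner membrane, rose by 1.21 and 1.23. Of the small chaperones, Timm10 and Timm8a1 rose by 3.42 and 3.71 in LM1, and Timm9 and Timm13 by 1.40 and 1.88. Timm8b fell by 0.74 in LM1 and 1.06 in LM9, and Timm10b did not pass in either line (adjusted p = 0.174 and 0.326, limma-voom). Tomm7 fell by 0.68 in LM1 and 1.16 in LM9. The receptors did not agree in direction: Tomm70a, which recognises carriers, rose by 0.96 in LM1, whereas Tomm20 fell by 0.49.

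Of 21 other transporters of the mitochondrial membranes, 16 rose in LM1 and 16 in LM9, 15 of them in both, while 3 fell in LM1 and 4 in LM9. Of all genes tested 43.1% rose in LM1, 44.3% in LM9 and 39.6% in both. The calcium and proton exchanger Letm1 rose by 3.30 in LM1 and Mcu, the pore of the calcium uniporter, by 1.80. The outer membrane channel Vdac1 fell by 0.81 and the sodium-calcium exchanger Slc8b1 by 1.13. Of 7 urea-cycle and proline enzymes measured, 3 rose and 3 fell in both lines, with Ass1 higher by 1.94 in LM1. Arg2 fell most, from 26.45 to 0.0426 CPM in LM1 and from 23.3 to 0.0411 CPM in LM9. It had at most 3 counts in an LM1-KO library and 4 in an LM9-KO library, so the size of its fall is poorly set. Oat, ornithine aminotransferase, fell by 0.92 in LM1, from 199 to 105 CPM. The carriers that rose and those that fell in both lines had median exon lengths of 3455 and 3935 bases and median GC contents of 50.1% and 49.8%.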

How the data were processed

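Poly-A RNA libraries (stranded) of 12 tumoursphere samples were sequenced as single-end reads. The authors aligned reads with STAR to mm10 and counted 5′ ends over the exon union of each gene with qCount (QuasR). The deposited values are whole-number counts per gene, not normalised, 1 file per library. Software versions, the annotation release and the use of strand in counting are not given in the sources used here. Each file lists the same 18278 genes, and 18268 identifiers matched GENCODE M21 (GRCm38, the assembly of mm10), which gave symbols, 1-based coordinates and exon lengths. Groups came from the sample titles.

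The members and gene lists were chosen with earlier results of these data known. The test was limma-voom (R 4.3.3, limma 3.58.1, edgeR 4.0.16) with TMM factors, filterByExpr (count minimum 10, total minimum 15, 18176 genes kept), 1 mean per group over all 12 libraries and Benjamini-Hochberg adjustment over all genes within a contrast. Tests were two-sided. CPM are TMM-scaled. CPM per kb divide by the exon union. Carriers chosen by rule were Slc25a30 and the 4 highest per kb. The 4 largest rises and falls called in both lines with a mean of at least 1 CPM were also chosen. So were those at 3 counts or fewer in a group and those called in 1 line or none. The smallest p-values in each direction between LM1 and LM9 completed the choice. Values are given by library or, as for Slc25a4, Slc25a35 and Slc25a40, as group means or ranges. Others were chosen after their values were seen, and 1 carrier is counted but not reported singly here. The scripts were tested on simulated data. Intervals and floors cover counting error only. Alternatives used edgeR quasi-likelihood, DESeq2 1.42.0, other scalings and filters, a replicate block, quality weights and left-out libraries. The correlation of same-numbered libraries' deviations ran from -0.033 to 0.026, so no shared deviation was seen. With 3 libraries per group, and LM9 replicate 1 lying with LM1, this cannot show whether same-numbered samples were prepared together.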

Additional observations from a re-analysis of the deposited data

How the results depend on the processing

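Of 82 results (41 carriers in 2 lines), 73 changed neither sign nor call under any alternative run. LM1 against LM9 depended on the processing: 0 carriers passed in limma-voom, 15 with DESeq2 (36.6%, against 31.8% of all genes), 18 with total counts (43.9% against 28.8%), 12 of 32 with a mean of at least 5 CPM (37.5% against 39.4%) and 25 with quality weights (61% against 63.8%), and 0 to 26 when 1 library was left out. The difference between lines gave 25 with quality weights (61%, against 58.1% of all genes) and 0 to 24 when 1 library was left out, the highest without LM9 replicate 1. In LM9 total counts turned the sign of Slc25a13 (0.043), Slc25a35 (0.32) and Slc25a51 (0.21), and quality weights that of Slc25a35 (0.014) and Slc25a51 (0.0019). When 1 library was left out, Slc25a12 in LM9 ran from -0.025 to 0.23, Slc25a35 from -0.16 to 0.092 and Slc25a51 from -0.24 to 0.021. The cause was not tested. Slc25a12 in LM9 passed with total counts (0.42), quality weights (0.22) and without LM9 replicate 1, and Slc25a51 in LM9 without LM9 replicate 2 (-0.24, adjusted p = 0.042 by limma-voom). Slc25a2 in LM9 lost its call with total counts (adjusted p = 0.119), with quality weights (0.139) and when any library but LM9 replicate 2 or LM9-KO replicate 2 was left out. Slc25a20 in LM1 lost its call when any LM1 library or LM1-KO replicate 1 or 2 was left out, and Slc25a12 and Slc25a51 in LM1 with total counts. With a replicate block the carriers called were 40 in LM1, 38 in LM9 and 0 in each of the other comparisons. Most of the 18176 genes tested were also called under the block in LM1 and in LM9. They were slightly fewer than the 81.2% and 82.3% called without it. No gene was called under the block in the other comparisons. Carriers under about 1 CPM are limited by depth.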
